A study of Mus musculus with 6 samples.

Results

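The subject is 1361 short stretches of the mouse genome, each of the narrower of 2 fixed widths and lying deep inside a protein-coding gene. They come from a merged list of 6502 regions made from ATAC-seq, an assay in which a transposase cuts open chromatin. A listed region belongs here if it has that width and its centre falls inside a protein-coding span, over 2.5 kb from every protein-coding gene end. The rule uses width and position only. Of the listed regions, 3210 have the narrow width, 3291 the wide one and 1 another, and the widths are given in bases with the processing and in the plots. The members were 42.4% of the narrow regions. The remaining narrow regions comprised 1135 beside genes, 323 at gene ends and 391 far from genes.

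The 6 libraries were made from freshly sorted prostate basal stem cells (CD45-, CD31-, Sca-1+, CD49f+), 3 of them naive and 3 inflamed. Naive libraries carry the genotype label WT and the treatment label control, and inflamed libraries the labels POET3 and inflamed, so genotype and inflammation cannot be told apart. POET3 mice express ovalbumin in the prostate, and inflammation followed transfer of activated OT-1 splenocytes and ran for 7 days. The extraction text speaks of POET3 animals in both groups, and the ages and numbers of animals are not given in the sources used here. The list holds coordinates alone. It gives no signal, depth or direction, so no region below is described as opening or closing, no cell type marker could be checked as a level, and no value has an error between replicates. The name of the list and the tools named by the submitters point to regions that differed between the groups, but no source used here states this.

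Open chromatin inside a gene body, away from its ends, often marks enhancers, stretches where transcription factors bind and act on a promoter at a distance. Long introns hold many of them. Such a stretch may act on the gene that holds it or on a neighbour, and a coordinate alone does not say which. Other internal open sites are alternative promoters, from which a shorter transcript of the same gene starts, and promoters of non-coding RNAs nested in the gene.

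Annotated internal starts were rare among the members, and those few are the members whose bases can be shown. RefSeq sequences (GRCm38.p6, the assembly of mm10) of 300 bases around annotated starts met 11 of the 1361 members and covered 6 of them whole. The tables do not hold every gene, so more members may lie at starts. Shown are 5 of the 11, chosen after their letters were seen, as examples of members at annotated starts of protein-coding and non-coding transcripts. Capitals mark matches to the motifs named below, and each sequence runs in the direction of the transcript that starts there.

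The first lies upstream of an internal start of Hrh1, the histamine H1 receptor gene, at chr6:114458295-114458437 on the plus strand. The next overlaps the start of the long non-coding RNA Gm31771 inside Pam, which encodes a peptide-amidating enzyme, at chr1:97911032-97911152 (plus strand). Another precedes the start of the long non-coding RNA Gm52921 inside Lrp6, the gene of a Wnt co-receptor, at chr6:134450873-134451015 (plus strand). One precedes an internal start of Nrxn3, a neurexin gene, at chr12:89812308-89812450 (plus strand). The last lies upstream of an internal start of Sirt4, a mitochondrial sirtuin gene, and covers the divergent start of the long non-coding RNA Gm42007, at chr5:115484414-115484547 (minus strand). For Pam and Sirt4 the RefSeq window covers 121 and 134 bases of the member, and only those are shown.
Hrh1: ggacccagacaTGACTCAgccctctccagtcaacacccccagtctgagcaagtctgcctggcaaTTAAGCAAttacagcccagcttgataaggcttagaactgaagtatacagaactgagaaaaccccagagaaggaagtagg
Pam, start of Gm31771: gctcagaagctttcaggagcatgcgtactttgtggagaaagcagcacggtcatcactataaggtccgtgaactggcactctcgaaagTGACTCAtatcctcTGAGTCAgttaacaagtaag
Lrp6, start of Gm52921: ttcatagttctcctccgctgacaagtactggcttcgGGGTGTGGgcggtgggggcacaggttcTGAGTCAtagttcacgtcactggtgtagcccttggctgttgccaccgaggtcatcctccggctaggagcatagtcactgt
Nrxn3: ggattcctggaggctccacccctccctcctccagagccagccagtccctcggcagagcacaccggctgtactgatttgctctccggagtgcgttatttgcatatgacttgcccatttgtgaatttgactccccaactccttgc
Sirt4: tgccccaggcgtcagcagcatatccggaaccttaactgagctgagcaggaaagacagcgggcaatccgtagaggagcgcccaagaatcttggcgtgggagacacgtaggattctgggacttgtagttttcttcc

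The capitals in Hrh1, Pam and Lrp6 include AP-1 letters (TGANTCA). AP-1 is the FOS and JUN family of factors that respond to stress and cytokines. These are the 3 of the 11 members with AP-1 letters in the covered bases, and the 6 not shown have none. The Pam member holds these letters at 2 places and the other 2 at 1 place each. Hrh1 also holds C/EBP letters (TTGCNNAA), and the Lrp6 member holds the CACCC form of the KLF motif (GGGTGTGG). Nrxn3 and Sirt4 hold none of the letters searched. No printed match overlaps another. Among the 6 members covered whole, 2 had AP-1 letters, 1 had C/EBP letters and 1 had the CACCC form. Over a stretch of member width from the middle of each of 32817 RefSeq start windows, the shares with these letters were 4.17%, 5.51% and 2.09%. The 6 members are too few to compare with those shares.

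The search covered both strands. For stress and signal factors it also used CRE, spelled TGACGTCA, and STAT, spelled TTCNNNGAA. For epithelial factors it used GRHL, spelled AACNNGTT, the TEAD letters GGAATG, the RUNX letters TGTGGTT and the ETS letters CCGGAAG. For further families it used the forkhead letters TGTTTAC, the GATA-family letters AGATAA, the SOX letters ACAATG, the E-box letters CAGCTG and the KLF/SP letters GGGCGGG. The last was an NFI single site, spelled TTGGCA. Of these, only the NFI letters were found in the 6 members covered whole, in 1 of them, against 6.95% of the windows. That member lies upstream of an internal start of Toporsl. Among members covered in part and not shown, NFI letters were also found in a Myof member and forkhead letters in a Vwa8 member. A match is a description of letters and not of a bound factor.

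A member on chromosome 12 (chr12:15800942-15801084) shared 91 bases with the hairpin of a microRNA inside Trib2, the gene of a pseudokinase. Its mature form is shown with the seed, the bases that pair with targets, in capitals.
mmu-miR-6387: uGGAAUGGcuucccuuguguau
The other microRNA hairpin near a member was that of Mir7008 in Prkci, a polarity kinase gene. It lay within 1 kb of the member and did not overlap it. Of the 43 members within 1 kb of a non-coding gene end, 29 were nearest to a long non-coding RNA, 8 to a pseudogene and 2 each to microRNA, small nuclear and small nucleolar RNA genes.

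The 1361 members lay in 1061 genes. A gene's deep sequence is taken as the part of its span over 2.5 kb from every protein-coding gene end. Of 21887 protein-coding genes, 16763 had deep sequence, 932.7 Mb in all, and 6.33% of those held a member. The members' density was 1.46 per Mb of deep sequence (exact Poisson 95% interval 1.38 to 1.54). Such intervals cover counting error only and treat regions as independent. A single member was found in 851 hosts, 152 hosts had 2, 36 had 3 and 22 had 4 or more.

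The most members in a host were 6, and Myo5b and Pam were among the 3 genes with that number. Myo5b, on chromosome 18, encodes a motor of recycling endosomes, and its members lay 33.9 to 116 kb from the nearest gene end. The Pam members lay 51.2 to 132 kb from one. Neither gene held a deep wide region.

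Another 4 genes held 5 members each. Myo10 encodes a motor of filopodia, Ptprj a receptor tyrosine phosphatase, Tbc1d1 a regulator of Rab GTPases and Vti1a a SNARE of vesicle fusion. The 5 members of Myo10 included 3 that followed each other within 15.3 kb near the 5′ end, from 25637861 to 25653200 on chromosome 15. Smurf1, Bcr and Cdc14a came next with 4 each, those with the least deep sequence of 15 genes with that number. Of the leading hosts named here, Cdc14a had 1 deep wide region and the others had none.

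Members per Mb of a host's own deep sequence gave another order. Among hosts with at least 3 members, Tnip3 was densest, with 3 in 38.6 kb, or 77.6 per Mb. Tnip3 encodes an inhibitor of NF-kB signalling that binds A20. Smurf1, a ubiquitin ligase gene of the BMP and TGF-beta pathways, had 47.4 per Mb. Igf1, the growth factor gene, had 40.7, Mtmr7, a lipid phosphatase gene, 38.1 and Ptprj 34.3. These rates rest on 3 to 5 members each and were what ranked the hosts.

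Genes with more deep sequence held members more often. The share of genes with a member was 0.665% for under 10 kb of deep sequence, 2.58% for 10 to 30 kb and 7.91% for 30 to 100 kb. It was 20.5% for 100 to 300 kb and 37.1% above that. Per Mb the order was different. Density was 1.53 in the shortest class (interval 1.07 to 2.13), 1.66 at 30 to 100 kb and 1.74 at 100 to 300 kb (1.59 to 1.90). In the longest genes it was 0.993 (0.885 to 1.11), below each of the 3 classes from 10 to 300 kb by intervals that do not overlap. The density of deep wide regions fell there too, from 1.49 (1.35 to 1.64) at 100 to 300 kb to 1.04 (0.928 to 1.16).

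**Figure D1:**
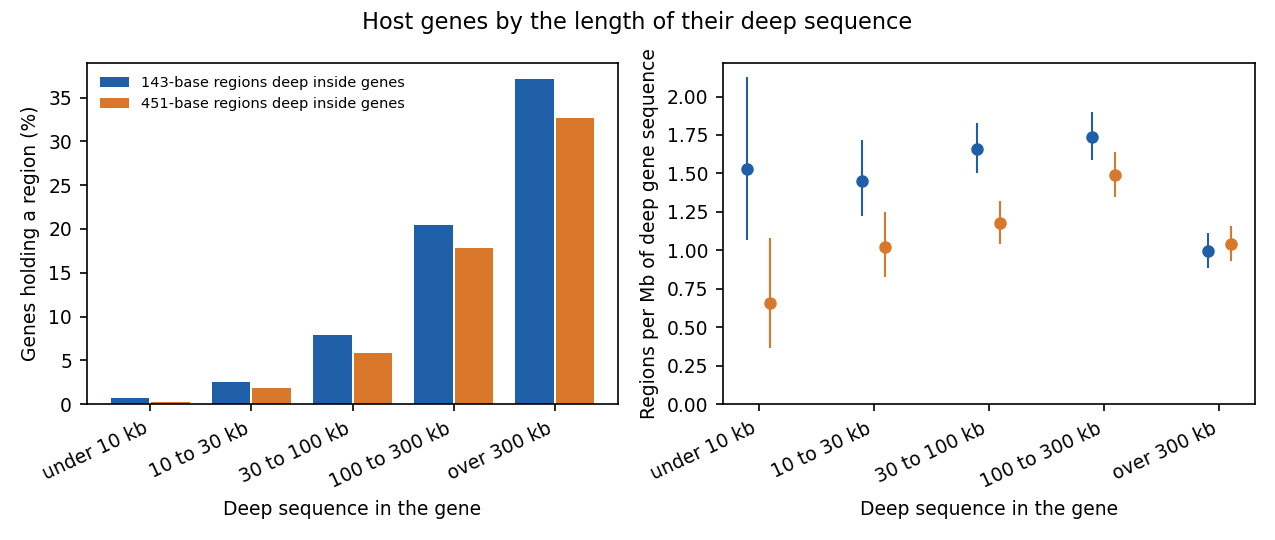
Host genes by the length of their deep sequence. Left, bars give the share of genes in each class that hold at least 1 deep narrow (blue) or wide (orange) region. Right, points give regions per Mb of deep sequence with exact Poisson 95% intervals. From 100 to 300 kb to above 300 kb, the blue density falls from 1.74 to 0.993 and the orange from 1.49 to 1.04.

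Many of the longest genes are known for their work in neurons. In a list of 36 long neuronal and other very long genes, 15 held a member (41.7%), beside 37.1% of all genes with over 300 kb of deep sequence. These shares are not matched for length, since the list has 47.2 Mb in 36 genes and that class 310 Mb in 542. The list's density was 0.423 per Mb (interval 0.259 to 0.654), and for wide regions 1.27 per Mb (0.969 to 1.63). Macrod2, the gene of a mono-ADP-ribosylhydrolase, had 3 members and 10 deep wide regions. Opcml and Fhit had 2 members and 4 such regions each. Macrod2, Fhit, Astn2, Anks1b and Pde4d entered this list because they were already known to hold many listed regions, so its value for wide regions is no independent evidence.

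The members farthest from any protein-coding gene end lay in very long genes. That of Lsamp, a neural cell adhesion gene on chromosome 16, was 852 kb from one. Members in Macrod2, Kcnip4, Naaladl2 and Nrxn3 followed at 523 to 666 kb. At the other end of the range, members in Vps37b, Akap1 and Gemin8 lay 2515, 2525 and 2567 bases from a gene end. Just short of the limit, and so not members, were regions inside Rnf217, Csrp2 and Ggh at 2477, 2426 and 2419 bases. The median member was 28.6 kb from a gene end, with an interquartile range of 12.1 to 66.5 kb.

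Among the gene lists, that of small GTPase regulators and actin motors held the most members. All lists were chosen with earlier results of these data known, so their densities are a description. These proteins switch small GTPases on or off and shape the actin skeleton and cell movement. Of 58 genes with deep sequence, 23 (39.7%) held 42 members in all. The density was 3.31 per Mb (interval 2.39 to 4.47), beside 1.46 over all genes. The listed genes are long, with a median of 175 kb of deep sequence, and the hosts include genes above 300 kb. Of all genes of 100 to 300 kb of deep sequence 20.5% held a member, and of those above 300 kb 37.1%. Myo5b with 6 and Myo10 with 5 led the list. Arhgap26, a GTPase-activating protein gene, had 4, with a pair 1.29 kb apart. Tiam1, an activator of Rac, had 3. For wide regions the same 58 genes had 16, or 1.26 per Mb (0.721 to 2.05).

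TGF-beta and BMP genes, whose ligands restrain epithelial growth through SMAD factors, held 16 members in 8 of 37 genes (21.6%), 5.42 per Mb (3.10 to 8.81). Over all genes with deep sequence the values were 6.33% and 1.46 per Mb. The list's median deep sequence was 64.0 kb, and 7.91% of all genes with 30 to 100 kb held a member. Of the 16 members in the list, 11 were in 3 genes. Ltbp1, which stores latent TGF-beta in the matrix, had 4 members, 2 of them 0.452 kb apart. Smurf1, which marks receptors and SMADs for degradation, also had 4. Smad3, the signal carrier itself, had 3, of which 2 were 0.448 kb apart. Tgfbr3, a co-receptor, had 1. For wide regions the density of the list was 2.37 per Mb, with an interval (0.954 to 4.89) that overlaps that of the members.

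NF-kB is the main factor of acute inflammation, held back by inhibitors that it induces itself. In its list 5 of 33 genes (15.2%) held 8 members, 7.56 per Mb (3.26 to 14.9). Over all genes with deep sequence the values were 6.33% and 1.46 per Mb. The list's median deep sequence was 24.0 kb, and 2.58% of all genes with 10 to 30 kb held a member. Of the 8 members in the list, 5 were in genes of A20-binding inhibitors, 3 in Tnip3 and 2 in Tnip1. The Tnip3 members lay within 8.52 kb of each other, at 65603814 to 65603956, 65607045 to 65607187 and 65612187 to 65612329 on chromosome 6. The Tnip1 members lay on chromosome 11, at 54936578 to 54936720 and 54958568 to 54958710. Malt1, a signalling protease gene, and Ikbkb, the gene of the kinase that releases NF-kB, had 1 each. The remaining host was Bcl3, an atypical inhibitor gene, named here after its value was seen.

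IL-1 and IL-18 signal to NF-kB through paired receptors and the IRAK kinases. In this list 5 of 23 genes (21.7%) held 8 members, 9.33 per Mb (4.03 to 18.4), beside 6.33% and 1.46 per Mb over all genes. The list's median deep sequence was 30.3 kb. Of all genes, 2.58% with 10 to 30 kb and 7.91% with 30 to 100 kb held a member. Of the hosts in the list, 3 are receptor genes in 1 cluster on chromosome 1, and so share a locus. Il1rl1, the IL-33 receptor gene, had members 27.7 kb apart. Il18rap, an IL-18 receptor subunit gene, had members 12.9 kb apart. Il1r2, the decoy receptor gene, had 1. Irak2, a kinase-like adaptor gene on chromosome 6, had 2 members, 13.4 kb apart. Il1rn (NCBI gene 16181), which encodes the IL-1 receptor antagonist, held 1 member on chromosome 2 at 24341546 to 24341688. It lay 4.76 kb from the 5′ end of the gene and 3.67 kb from the nearest annotated Il1rn start, which lies further downstream. The NF-kB and IL-1 lists each held 2 deep wide regions, and the intervals of the widths overlap. Both lists were already known to hold many listed regions when they were chosen, so their densities are a description and no independent evidence.

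In the basal epithelial list, 4 of 19 genes (21.1%) held 6 members, 4.28 per Mb (1.57 to 9.31). Over all genes with deep sequence the values were 6.33% and 1.46 per Mb. The basal list's median deep sequence was 38.5 kb, and 7.91% of all genes with 30 to 100 kb held a member. Egfr, the epidermal growth factor receptor gene on chromosome 11, had 3, at 16790369 to 16790511, 16791361 to 16791503 and 16809755 to 16809897. Lama3, a laminin chain gene, Col17a1, a hemidesmosome collagen gene, and Ngfr, the p75 receptor gene, had 1 each. Trp63, the basal master factor, held no member and 2 deep wide regions. For wide regions the density of the basal list was 1.43 per Mb, with an interval (0.173 to 5.15) that overlaps that of the members. In the luminal list 2 of 17 genes (11.8%) held 1 member each, Prom1, a membrane glycoprotein gene, and Grhl2, an epithelial transcription factor gene. The luminal list held no deep wide region. Its median deep sequence was 10.6 kb, and 2.58% of all genes with 10 to 30 kb held a member. The intervals of both lists are broad and overlap, and the luminal density was 4.15 per Mb with a lower bound of 0.503.

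Nuclear receptors are transcription factors that hormones and other small lipid-like molecules switch. Among nuclear receptor genes 5 of 34 had members (14.7%), at 1.76 per Mb (0.759 to 3.47), an interval that contains the 1.46 of all genes. The list's median deep sequence was 56.5 kb, and 7.91% of all genes with 30 to 100 kb held a member. For wide regions 5 of the 34 were hosts as well, at 1.98 per Mb (0.905 to 3.76). Rarb, a retinoic acid receptor gene, had 4 of the 8, and 3 of these lay within 35.4 kb of the 5′ end of its span. The same 3 lay 471 to 488 kb from the nearest Rarb start in the sequence tables. Thrb, Ppard and Esrrg had 1 each.

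Junction and matrix genes hold epithelial cells together and to the basement membrane. Of 44 junction and polarity genes, 11 (25.0%) held 15 members, 2.12 per Mb (1.19 to 3.50). Pard3b had 4 and Pard3 and Magi1, further scaffold genes of polarity and junctions, 1 each. Nectin4, an adhesion receptor gene of only 18.11 kb, had 2 members, 2.25 kb apart. Fat1, a giant cadherin gene, had none, against 4 deep wide regions. Of 46 integrin, focal adhesion and basement membrane genes, 10 held 13 members, 2.37 per Mb (1.26 to 4.05), and 12 held 21 deep wide regions, 3.82 per Mb (2.37 to 5.84). The members' intervals of the junction and integrin lists both contain the 1.46 of all genes. Their median deep sequence was 53.2 and 95.4 kb, and 7.91% of all genes with 30 to 100 kb held a member. Itgb6, an integrin gene of epithelia, Nid1, which encodes a basement membrane linker, and Lama4 had 2 members each.

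Growth signalling, transcription factor and chromatin genes also held members, with list densities of 1.82 to 2.72 per Mb, against 1.46 over all genes. The intervals below contain that value, except that of the transcription factor list, which begins at it. For wide regions the densities of these lists were 0.864 to 2.72 per Mb. List medians of deep sequence ran from 17.8 to 81.2 kb. Of all genes, 2.58% with 10 to 30 kb and 7.91% with 30 to 100 kb held a member. Of 60 receptor kinase, RAS and PI3K genes, 13 held 14 members, 2.02 per Mb (1.10 to 3.38), with 2 in Inpp4b and 1 each in Erbb4, Map3k5 and Gab1. Of 52 Notch, Wnt and Hippo genes, 11 held 1 member each, 2.10 per Mb (1.05 to 3.76), among them Maml2, Stk3, Wwtr1 and Ror1. Of 48 epithelial and AP-1 transcription factor genes, 10 held 17 members, 2.50 per Mb (1.46 to 4.01). Bach2, a repressor of the AP-1 superfamily, had 3, and Foxp1, Runx2 and Etv6 had 2 each. Of 50 chromatin regulator genes, 5 held 10, led by Arid1b and Hdac4 with 3 each, 1.82 per Mb (0.874 to 3.35). Cdk6, a kinase gene of the G1 phase, had 3 members within 8.37 kb, and Cdk14 was the only other host among 28 cell cycle genes (2.72 per Mb, 0.742 to 6.98). Jak2, Lifr and Il17ra held 1 member each, the 3 of 36 cytokine receptor and JAK-STAT genes to do so (2.18 per Mb, 0.450 to 6.38).

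Among the lists of other cell types and of interferon genes, only the endothelial list held members. None was found in 29 interferon and antigen presentation genes, which allows a share of up to 10.3% of genes (3 counts of the total). None was found in 17 T cell, 13 myeloid and 17 fibroblast and smooth muscle genes, which allow 17.6%, 23.1% and 17.6%. Their deep sequence is short, and the Poisson intervals reach 7.51, 7.22, 7.26 and 5.34 per Mb, above the value of all genes. In 4 of the 17 fibroblast and smooth muscle genes there were 6 deep wide regions, 8.69 per Mb (3.19 to 18.9). Of 14 endothelial genes, Tek and Vwf held 1 member each, 14.3% of the genes. The median deep sequence of this list was 39.7 kb, and 7.91% of all genes with 30 to 100 kb held a member. The endothelial density was 2.14 per Mb (0.259 to 7.74), an interval that contains the 1.46 of all genes. The gate should leave out leukocytes and endothelial cells, and the part of other cell types in any result was not tested.

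**Figure D2:**
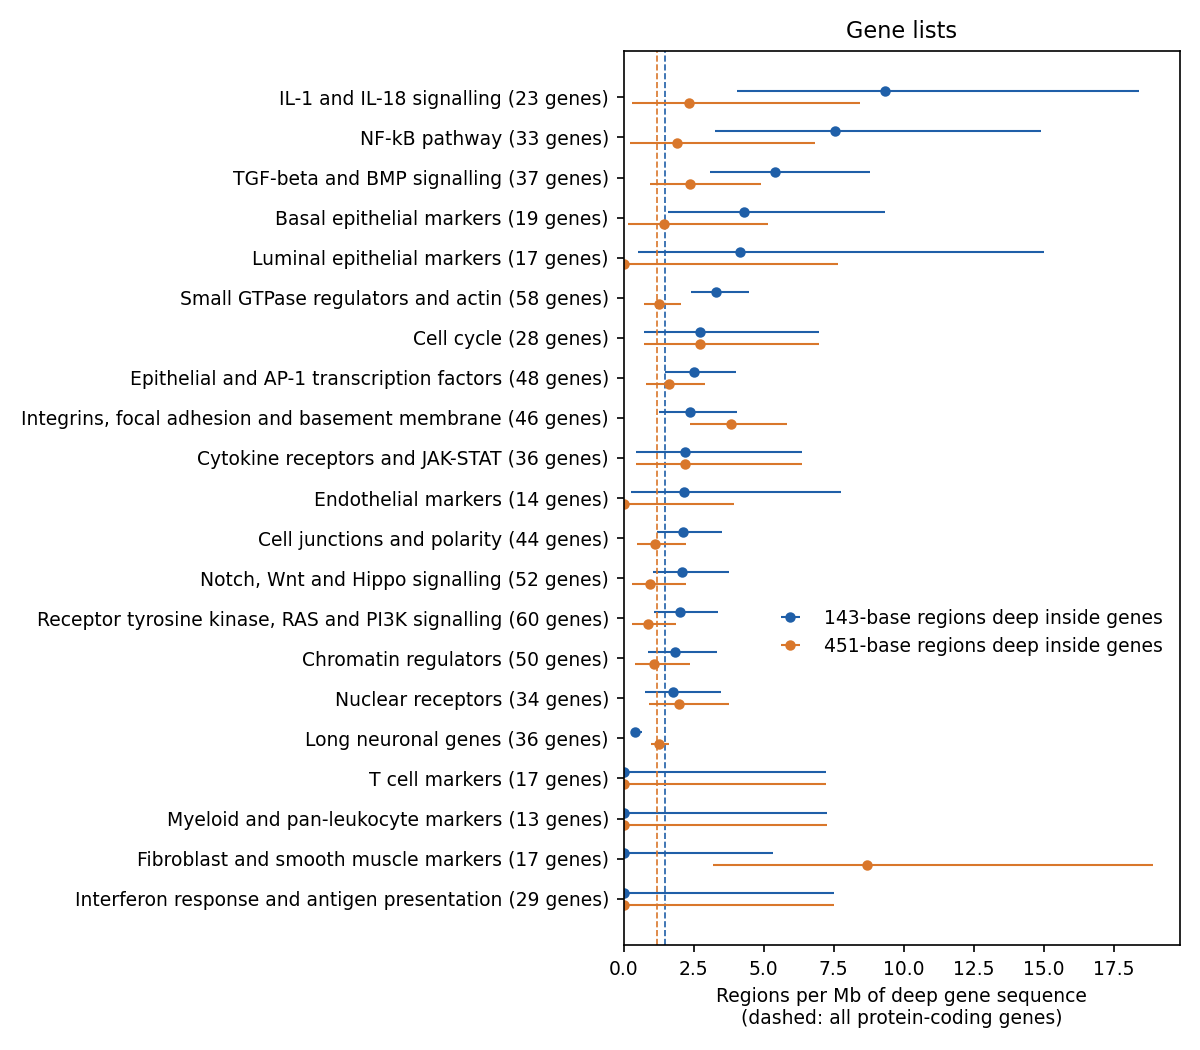
Regions per Mb of deep gene sequence in the gene lists described, for members (blue) and deep wide regions (orange), with exact Poisson 95% intervals and, in brackets, the genes with deep sequence. Dashed lines mark 1.46 and 1.21, the values over all protein-coding genes. The blue intervals of the IL-1, NF-kB, TGF-beta, basal and small GTPase lists lie above the blue line. That of the long neuronal list lies below it. All lists were chosen with earlier results of these data known, so these positions are no independent evidence. The IL-1 and NF-kB lists, and some genes of the neuronal list, were already known to hold many listed regions.

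Members lay along the whole length of their hosts. RefSeq strands were at hand for the hosts of 1062 members. Their median position was 48.8% of the way from the 5′ to the 3′ end. In 5 equal parts of the span, the first held 15.3% of members, the next 25.0% and the last 17.9%. The matching shares of wide regions were 19.0%, 20.8% and 19.1%. The first 50% of the span held 51.4% of members and 50.7% of wide regions (Fisher's exact test, two-sided, adjusted p = 0.79 over 2 properties). The exclusion of 2.5 kb at each end thins the outer bins, in short genes most.

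**Figure D3:**
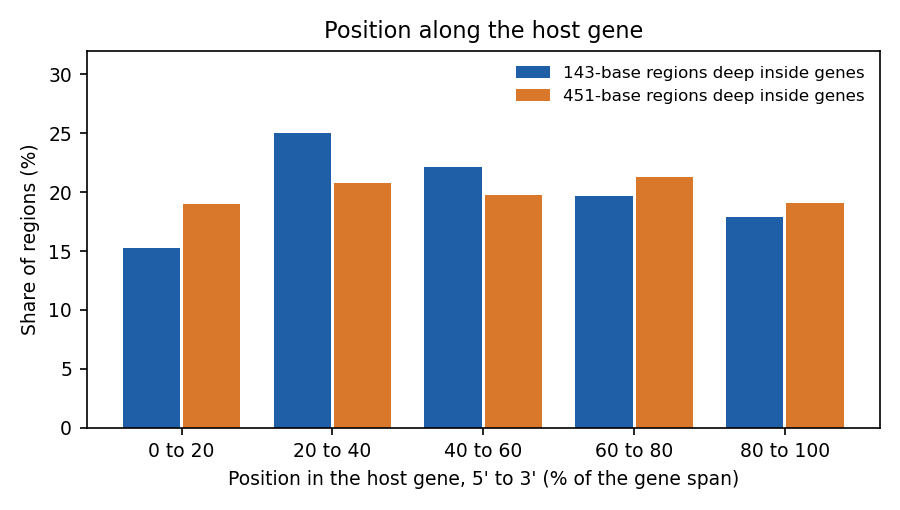
Share of regions in each of 5 equal parts of the host gene's span, from the 5′ to the 3′ end, for the 1062 members (blue) and 897 deep wide regions (orange) whose host has a RefSeq strand. The blue bars run from 15.3% in the first to 25.0% in the next.

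Members seldom lay at an internal start of their host, and wide regions did so more often. Within 1 kb of an annotated start of the host were 11 of 1062 members (1.04%, exact 95% interval 0.518 to 1.85) and 55 of 897 deep wide regions (6.13%, 4.65 to 7.91). The difference was -5.10 percentage points (Fisher's exact test, two-sided, adjusted p = 4.6e-10 over 2 properties). The 11 hosts were Plekhs1, Nrxn3, Tmem39b, Toporsl, Cyth1, Hrh1, Sirt4, Nacc2, Clip4, Zfp119b and Prcd, at 43 to 915 bases. Counted from the starts, 11 of 2845 protein-coding starts in deep sequence (0.387%) had a member within 1 kb, and 63 (2.21%) had a deep wide region. For 2429 non-coding starts in deep sequence the counts were 12 (0.494%) and 22 (0.906%), and neither pair was tested. Distances were taken from the centres of regions of either width. Within 1 kb of either end of a non-coding gene, not its start alone, lay 3.16% of members and 3.37% of wide regions. That difference did not pass the test (Fisher's exact test, adjusted p = 0.84 over 10 properties).

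Some members lay very close together. A narrow region of any position lay within 10 kb of 181 members (13.3%), and a wide region within 10 kb of 80 deep wide regions (7.09%). The difference was 6.21 percentage points (Fisher's exact test, two-sided, adjusted p = 3.6e-06 over 10 properties). With 1 region per host it was 3.41 points (adjusted p = 0.0083), and at 50 kb in place of 10 kb it was 1.47 points (adjusted p = 0.55). The difference lay at the shortest distances. Up to 5 kb, 117 members (8.60%) had such a neighbour, against 5 of 1129 deep wide regions (0.443%). From 5 to 10 kb the order turned, with 4.70% and 6.64%. In the whole list 30 of 3291 wide regions had a neighbour of their width up to 5 kb away, and the closest were 1.16 kb apart. A minimum spacing set during region calling was not tested, since no source used here gives the calling settings.

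The closest pairs of members lay in Tmprss11f, a serine protease gene, and in Dock11, an activator of CDC42, with centres 339 and 341 bases apart. Farsb, Psmb7 and Plekhm3 followed at 373, 386 and 414 bases. In all, 87 adjacent pairs were within 10 kb, each inside a single host, and 8 of them within 500 bases. Groups of 3 were found in Bcr, Igf1, Myo10, Cdk6 and Tnip3, over 8.37 to 15.3 kb. Neighbours of the other width were rare, with 15 members (1.10%) having a wide region within 10 kb. The closest was 1.72 kb away.

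**Figure D4:**
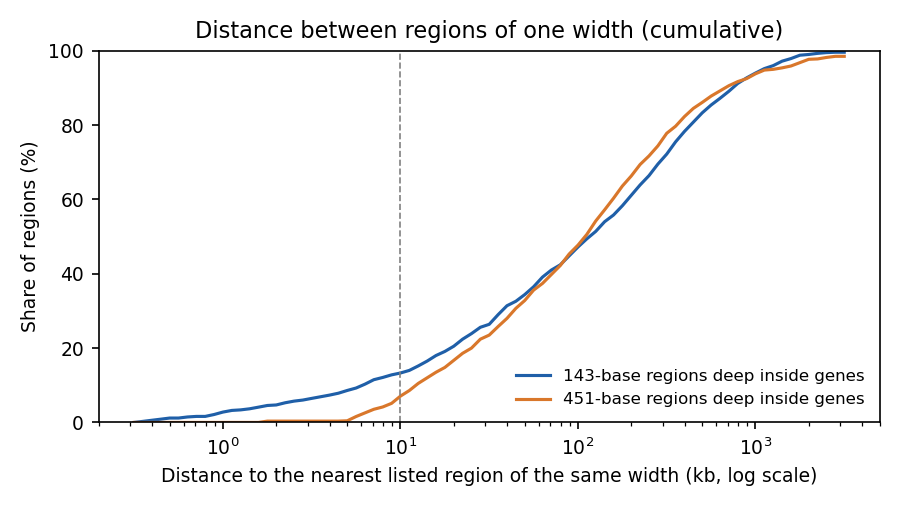
Cumulative share of regions whose nearest listed region of the same width lies within the distance on the log axis (kb), for members (blue) and deep wide regions (orange); the dashed line marks 10 kb. At 10 kb the curves stand at 13.3% and 7.09%, and the blue curve starts at 0.339 kb.

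The same genes could hold both widths. Of the 1061 hosts, 167 (15.7%) also held a deep wide region, which is 19.8% of the 842 hosts of that width. Over all genes with deep sequence, 5.02% held a deep wide region. Long genes are more likely to hold either width, so this overlap was not compared with chance. Hosts over 100 kb held 60.0% of members and 66.6% of deep wide regions, a difference of -6.58 percentage points (Fisher's exact test, two-sided, adjusted p = 0.0018). With 1 region counted per host it was -4.66 points and did not pass (adjusted p = 0.092). Of the members, 37.5% shared a host with another member, against 42.2% for wide regions (adjusted p = 0.038). That call was lost under 4 of the 5 alternatives in which it could be computed. The shares over 25 kb from a gene end were 54.5% and 56.2% (Fisher's exact test, adjusted p = 0.50).

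Members were densest on chromosomes 19 and 18, at 2.22 and 2.14 per Mb of deep sequence. Their intervals, 1.67 to 2.89 and 1.65 to 2.73, lie above the 1.46 of the genome. The intervals of chromosomes 3 (1.47 to 2.27) and 5 (1.48 to 2.18) also lie above it. Those of chromosomes 12 (0.702 to 1.36), 15 (0.718 to 1.41) and X lie below it. Chromosomes 19 and 18 were named for their values, with no adjustment for the number of chromosomes. Members were sparsest on chromosome X, at 0.507 (interval 0.314 to 0.775), and none lay on chromosome Y. Chromosome X held 1.54% of members and 4.07% of deep wide regions. Chromosome 11 held 6.47% and 2.66%, or 1.81 and 0.616 per Mb. These 2 chromosomes were chosen because the widths were already known to differ there over all positions, members included, so the values are given as a description with no test.

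**Figure D5:**
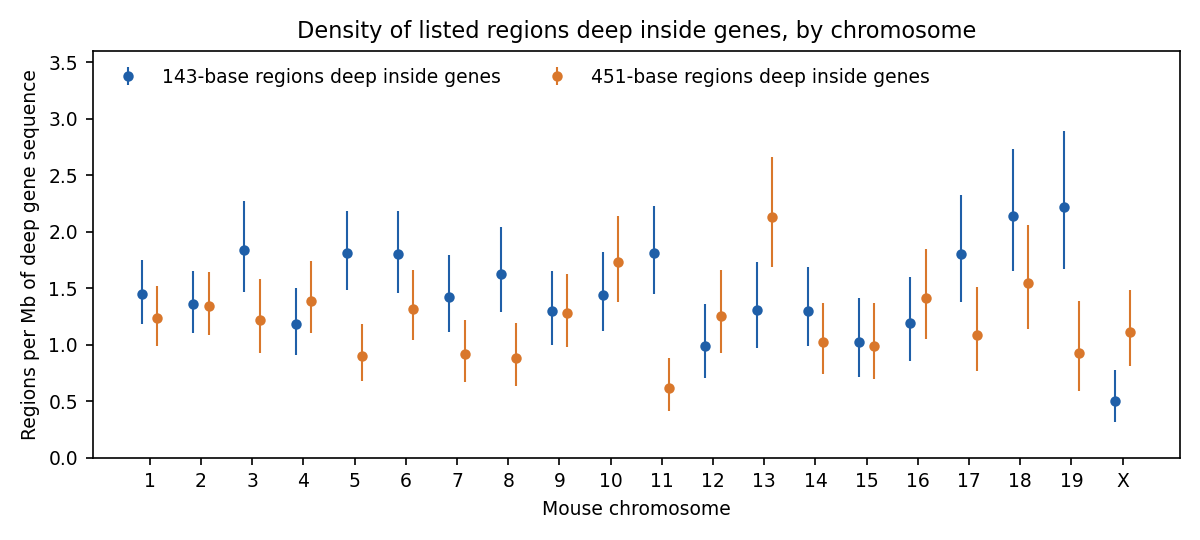
Regions per Mb of deep gene sequence on each chromosome for members (blue) and deep wide regions (orange), with exact Poisson 95% intervals; chromosome Y, with none, is left out. Blue lies above orange with intervals apart on chromosomes 5, 8, 11 and 19, and below it on chromosome X.

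Members were also compared with narrow regions elsewhere. Chromosome 11 held 5.90% of the narrow regions beside genes, 0.563 points less than of the members (Fisher's exact test, adjusted p = 0.85 over 6 comparisons). It held 16.4% of those at gene ends (-9.94 points, Fisher's exact test, adjusted p = 4.7e-07). Chromosome 11 has 48.7 of the 932.7 Mb of deep sequence, and its share of all gene ends was not counted. The position rule alone may therefore set these shares, and the difference cannot be read as a trait of the members. The same limit holds for chromosome X, and both chromosomes were chosen with earlier results known. Chromosome X held 1.41% of the regions beside genes (adjusted p = 0.87) and none of the 323 at gene ends, which allows up to 1.14% (exact interval, adjusted p = 0.066). A neighbour within 10 kb was found for 16.0% beside genes and 12.4% at gene ends (adjusted p = 0.12 and 0.85). A p above the threshold does not show that the shares are equal.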

How the data were processed

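ATAC-seq libraries of 3 naive and 3 inflamed samples underlie 1 deposited list of regions. Its values are start and end coordinates, with no read count or signal. The narrow regions are 143 bases wide (3210) and the wide ones 451 bases (3291). Per the submitters' processing notes, BWA 0.7.17-r1188, SAMtools, HOMER 4.8 and edgeR were used on mm10. Order, thresholds and pooling are not given in the sources used here, and the depth is unknown. Starts, counted from 0 in the list, are printed from 1. Each region was placed by its centre on a RefSeq table (GRCm38.p6), and the shortest enclosing protein-coding gene was its host. The table gives spans without exons. Starts and strands came from RefSeq sequence tables, which held 17492 of 21887 protein-coding genes and none on chromosome 18. No genome sequence was used here, so GC content and motifs over all members were not run.

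Shares were compared by Fisher's exact test with Benjamini-Hochberg adjustment within a family (threshold 0.05), and have Clopper-Pearson 95% intervals. These tests treat regions as independent, which neighbours are not. The code was tested on simulated data (Python 3.11.15, scipy 1.17.1). The members, the 22 gene lists (807 entries, 3 unmatched) and the tests were chosen with earlier results of these data known. The tests on annotated starts and on the first 50% of the span, and the split of neighbour distances at 5 kb, were added after the tables were seen. Named are the 10 hosts with the most members, the 5 densest with at least 3, up to 4 hosts per list, the 5 farthest members, the 3 on either side of the limit, the 5 closest pairs, regions at non-coding ends, and Il1rn, Trp63, Fat1 and Egfr. A gene list, a motif and some genes that this rule names are not reported here.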

Additional observations from a re-analysis of the deposited data

How the results depend on the processing

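No paired analysis was possible because coordinates alone were deposited, with nothing measured per library, so no library could be left out either. The numbers of members and hosts stayed within 1.5 times under other distances, whole regions inside the span, merging within 1 kb and the longest gene as host. The difference near annotated starts, a test added after the tables were seen, kept its call in the alternatives run, which reuse the same regions and add no independent support. In percentage points, members minus wide regions, hosts over 100 kb gave -4.66 with 1 region per host, no longer past the threshold. A further region in the host gave -3.45 (over 5 kb from gene ends), -1.99 (over 10 kb), -4.38 (autosomes) and -4.47 (without chromosome 5, the fullest), none past it. A neighbour of the same width gave 1.47 at 50 kb, no longer past it, and distance from a gene end passed only at a limit of 50 kb, with -4.34. Some differences that passed under no setting changed sign, namely non-coding ends (0.451 over 5 kb, 0.383 over 10 kb), a neighbour of the other width (-0.170 over 10 kb, -0.861 at 50 kb) and the first 50% of the span (-0.250 with 1 region per host). Against narrow regions beside genes and at gene ends, the neighbour share at 50 kb gave 0.407 and -2.29. The causes were not tested. List densities, with genes of at least 20 kb of deep sequence or autosomes alone, stayed inside their intervals in all 44 cases. The unknown depth limits which regions could be listed at all.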
